A study of Mus musculus with 6 samples.

Results

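The genes described here are the secreted Wnt ligands, their Frizzled and Lrp receptors, the secreted inhibitors, the intracellular transducers, the feedback targets and the TCF/LEF factors of the Wnt pathway, 45 symbols in all, followed on mouse bead arrays. Members were chosen by gene symbol, taking every probe that the platform annotation names with a listed symbol and no threshold on a measured value. Of the 45 genes, 44 had a named probe, with 83 probes among the 45281 on the array. Tcf7 had none with its symbol and is not analysed here. Of the 44 genes, 26 could be tested, among 10913 genes tested in all. The 6 arrays formed 3 groups of 2, all from the mouse strain OG2, a transgenic line in which regulatory sequence of the pluripotency gene Pou5f1 drives green fluorescent protein. The HF group was hair follicle from dorsal skin of mice aged 2 months. The HFGSC group was germline stem cells that the labels describe as derived from hair follicle, with dorsal skin as the tissue and an age of 4 months. The GSC group was testis germline stem cells, at 3 months. Age therefore differed with group in every comparison, and the labels name no further treatment and no deletion.

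Wnt proteins are secreted, lipid-modified ligands that bind Frizzled receptors. With an Lrp5 or Lrp6 co-receptor they stop a complex of Axin, Apc and Gsk3b from marking beta-catenin (Ctnnb1) for destruction, and beta-catenin then acts with TCF/LEF factors on target genes, some of which, such as Axin2 and Nkd1, feed back to dampen the pathway. In skin the pathway is known for its part in hair follicle formation and growth, and in the testis Wnt ligands are known to act on spermatogonial stem cells.

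All values are log2 intensities after background correction and quantile normalization, and a probe counted as detected on an array where its detection p was under 0.05. A gene was tested if a probe was detected on both arrays of at least 1 group. A gene passed the test where limma's p, adjusted over all tested genes, was under 0.05. Precision is limited by the number of arrays, 2 in each group, for which the smallest two-sided p of an exact permutation test would be 0.333. Whether replicates were different animals or cultures is not said in the labels, and the p-values therefore reflect just the spread among these arrays, which may be technical. In such bulk RNA, fewer cells of a type and less RNA per cell cannot be told apart.

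Marker genes were read first, as a check of the labels. Mean array intensities lay between 911 and 1149.3. On the HF arrays 16593 and 16094 probes were detected, against 18772 to 19552 on the HFGSC and GSC arrays. The lowest detected signal was 6.39 and 6.50 on the HF arrays, against 5.88 to 5.99 on the others. A signal between these levels could therefore count as detected only outside HF. All 8 spermatogonial markers were detected on both arrays of HFGSC and of GSC, and 1 of 8 on both HF arrays. The keratinocyte markers Krt5, Krt14 and Trp63 and the follicle bulge marker Krt15 went undetected on all 6 arrays. Of the whole lists, 1 of 7 basal keratinocyte markers (Itga6) and 4 of 6 bulge markers (Cd34, Sox9, Nfatc1 and Tcf7l1) were detected on both HF arrays. So were 1 of 6 dermal papilla and 2 of 5 endothelial markers. The markers of the HF label were therefore mixed. The endothelial marker Eng had a mean of 11.99 in HF, 6.53 in HFGSC and 5.85 in GSC. Cdh5 and Tek passed in neither comparison with HF, and Pecam1 was higher in GSC. The dermal papilla markers Alpl and Crabp1 were higher in both, and the other 4 of that list (Vcan, Sox2, Corin and Prom1) were detected on no array. Itgb4, Col17a1 and Cdh3, also on the keratinocyte list, were not detected in HF by the probes tested, though another Col17a1 probe was detected on HF replicate 2. They rose in both germline stem cell groups, by at least 9.53-fold, 13.2-fold and 10.8-fold in HFGSC and at least 6.62-fold, 13.3-fold and 13.4-fold in GSC (limma adjusted p from 0.000760 to 0.00454). The mesenchymal markers moved in both directions. Dcn, at 5.22 and 4.93 on the HF arrays, read 13.71 and 14.02 in HFGSC and 13.56 and 12.75 in GSC. Pdgfra and Fbln1 were likewise higher in both, whereas Vim was lower in both. The summed intensity of the 10 mesenchymal markers was 46743 and 50989 on the HF arrays, 29406 and 58325 in HFGSC, and 26591 and 23650 in GSC. On these lists HFGSC replicate 2 differed from replicate 1, with 9 of these 10 markers, 6 of the 6 bulge markers (Krt15 below detection) and 0 of the 8 spermatogonial markers higher. Over all tested genes the replicates of HFGSC were not the farthest apart. The median size of their log2 difference was 0.51 in HFGSC, 0.41 in HF and 0.57 in GSC. The bulge sums were 11443 and 18572 in HFGSC, 5051 and 4957 in HF, and 5424 and 6897 in GSC. The spermatogonial sums were 92619 and 52538 in HFGSC. Of all tested genes, 7.5% were over 1 log2 unit higher on HFGSC replicate 2 than on each of the other 3 germline stem cell arrays. The same share for the other arrays is not given here. The part of any of these cell type markers in the Wnt results below was not tested.

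Fzd10, Fzd3, Dkk3, Axin2, Nkd1, Nkd2, Dvl2, Sfrp1, Sfrp2 and Wnt5b were higher than in HF in both HFGSC and GSC, and Wnt7b was lower in both. In addition, Fzd9 passed as higher and Fzd6 as lower in HFGSC, and Wnt3 passed as higher and Fzd8 as lower in GSC. None of these 4 genes passed between HFGSC and GSC, but Wnt3 did with the replicate number as a block (adjusted p = 0.0343, lower in HFGSC). In HFGSC against HF 11 of the 26 tested members rose and 2 fell, where of all tested genes 17.2% rose and 9.37% fell. In GSC against HF likewise 11 rose and 2 fell, where 19.5% of all genes rose and 12.6% fell. The median log2 difference of the 26 members was 0.83 in HFGSC and 0.51 in GSC, against 0.05 and 0.07 over all tested genes. With lower-bound folds in place of the fitted values, the member medians were 0.74 and 0.51. The arrays of HFGSC and HF did not overlap for 21 of the 26 members, or 80.8%, against 65% of all genes, and those of GSC and HF for 20, or 76.9%, against 67.5%. These medians and shares include genes detected on neither HF array, which were 10 of the 26 members and 1858 of the 10913 genes. Such genes were tested only because a germline stem cell group had them detected, and the medians and shares were not split by this. Both comparisons share the HF arrays, so their values are set side by side and not taken as separate evidence.

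The members that rose were for the most part those not detected in HF. For 10 of the 26 tested members the probe was detected on neither HF array, namely Wnt3, Fzd3, Fzd9, Fzd10, Dkk3, Sfrp2, Axin2, Nkd1, Nkd2 and Dvl2. Such a gene entered the test only through a germline stem cell group in which it was detected. Of these 10, 9 rose in HFGSC and 9 in GSC, where 63.6% and 69.3% of the 1858 genes of the same kind rose. Of the 14 members detected on both HF arrays, 1 rose and 2 fell in each comparison. That is 7.14% higher and 14.3% lower, near the 7.02% and 12.2% of the 8357 such genes in HFGSC, and the 8.74% and 16.4% in GSC. The counts also depended on single arrays. Leaving out most of the arrays named next clearly lowered the total of all genes past the test as well. For HFGSC replicate 2 that total hardly changed, while fewer of all genes rose and more fell. None of these changes is read as a trait of the members. Without HF replicate 1, 4 members rose and 1 fell in HFGSC, and 6 rose and 1 fell in GSC. Without HF replicate 2 the counts were 7 and 1 in both comparisons. In HFGSC fewer members rose without HFGSC replicate 1 or without HFGSC replicate 2, so these counts changed too. In GSC they were 10 and 1 without GSC replicate 1, and 7 and 1 without GSC replicate 2. With the replicate number as a block, 13 members rose and 5 fell in HFGSC, where 26.4% and 20.6% of all genes did, and 11 rose and 6 fell in GSC, where 29.1% and 22.9% did.

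**Figure D1:**
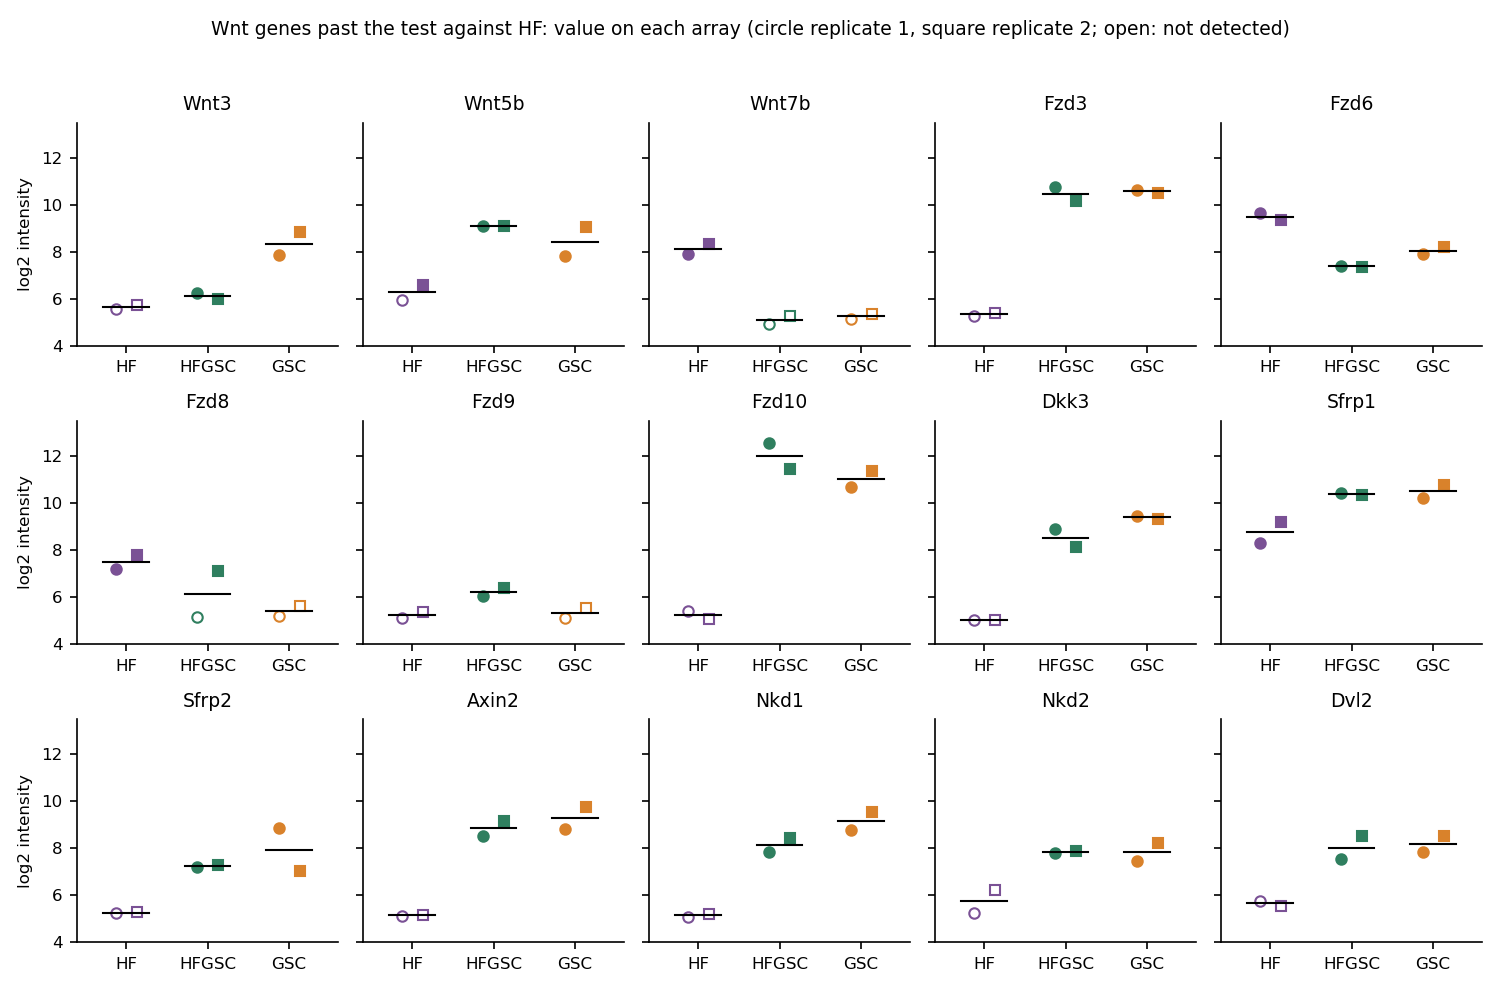
Log2 intensity of the probe that stands for each of the 15 Wnt genes past the test against HF, on each array, with replicate 1 as circles, replicate 2 as squares, open symbols for values not detected and lines for group means. Panels share 1 axis but show different probes, whose levels cannot be set against each other. Fzd10 lay at 5.41 and 5.05 on the HF arrays and between 10.67 and 12.55 on the others, while Wnt7b was detected on the HF arrays alone.

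Promoter sequence is shown for 4 of the members that rose: Axin2 and Nkd1, the feedback targets with the largest differences, Fzd10, the receptor with the largest difference, and Wnt5b, the one gene past the test with a TCF/LEF core in the bases before an annotated start, among those with a promoter window. The sequences are RefSeq's, of assembly GRCm38.p6, and run over the 250 bases before the annotated start, on the gene's own strand. Capitals mark CTTTGA or CTTTGT, the core letters that TCF/LEF factors bind, sought on both strands.
Axin2, chr11:108920099-108920348, plus strand: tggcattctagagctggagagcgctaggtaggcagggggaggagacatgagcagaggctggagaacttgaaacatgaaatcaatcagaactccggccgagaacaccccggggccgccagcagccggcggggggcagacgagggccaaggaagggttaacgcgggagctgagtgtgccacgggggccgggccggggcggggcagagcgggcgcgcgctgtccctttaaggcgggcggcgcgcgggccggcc
Nkd1, chr8:88527383-88527632, plus strand: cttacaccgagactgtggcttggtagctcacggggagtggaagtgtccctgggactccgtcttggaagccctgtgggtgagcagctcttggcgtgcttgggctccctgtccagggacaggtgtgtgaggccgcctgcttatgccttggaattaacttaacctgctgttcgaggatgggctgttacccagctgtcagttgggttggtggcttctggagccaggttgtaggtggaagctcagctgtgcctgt
Fzd10, chr5:128600856-128601105, plus strand: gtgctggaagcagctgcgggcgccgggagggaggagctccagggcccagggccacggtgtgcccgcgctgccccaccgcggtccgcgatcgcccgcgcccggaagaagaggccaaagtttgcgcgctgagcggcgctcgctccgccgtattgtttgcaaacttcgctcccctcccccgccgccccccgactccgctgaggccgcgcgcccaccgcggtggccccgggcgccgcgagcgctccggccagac
Wnt5b, chr6:119449387-119449636, minus strand, 1 of 3 annotated starts: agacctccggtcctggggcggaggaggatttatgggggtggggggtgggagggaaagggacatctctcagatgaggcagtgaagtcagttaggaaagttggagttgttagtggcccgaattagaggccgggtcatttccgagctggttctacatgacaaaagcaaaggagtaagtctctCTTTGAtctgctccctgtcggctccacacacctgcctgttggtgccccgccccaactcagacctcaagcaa

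A promoter window was found for 31 of the 45 members. At least 1 of the cores lay, within 250 bases before to 50 bases after the start, in 9 of 39 member windows, or 23.1%, against 31.2% of all 32851 windows. Of the 11 windows of the 9 members with a window that rose, 2 held one. The member windows were rich in G and C, with a median of 67.3% against 52.7% over all windows, and held a median of 26 CpG sites against 7. These matches describe letters in a short window. They identify no bound site, and where no match was found, only these letters were absent.

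Of the 15 Wnt ligands listed, 4 could be tested, and they went different ways. Wnt5b, a ligand known mainly for beta-catenin-independent signalling, read 5.93 and 6.61 on the HF arrays, against 9.08 and 9.12 in HFGSC and 7.80 and 9.07 in GSC. Every germline stem cell array was above both HF arrays, of which replicate 1 was below detection, so the HF mean includes 1 value not above background. Wnt5b rose 7.11-fold in HFGSC (log2 difference 2.83 ± 0.59 SE, n = 2 per group, limma adjusted p = 0.0121) and 4.49-fold in GSC (difference 2.17 ± 0.59, adjusted p = 0.0280). Without HF replicate 1 neither call held (adjusted p = 0.104 in HFGSC and 0.191 in GSC), and in GSC it also failed without HF replicate 2 (0.0820) and without GSC replicate 2 (0.138).

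Wnt7b, a ligand known from skin epithelium, moved the other way. It read 7.91 and 8.32 on the HF arrays, against 4.92 and 5.28 in HFGSC and 5.16 and 5.34 in GSC. It was detected on both HF arrays and on no other array. It was at least 4.55-fold lower in HFGSC (log2 difference -3.01 ± 0.32 SE, limma adjusted p = 0.000807) and at least 4.50-fold lower in GSC (difference -2.86 ± 0.32, adjusted p = 0.000842), and both calls held without any 1 array. Its second probe was detected on no array.

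Wnt3, a ligand of the beta-catenin branch, was high in GSC. It went undetected on both HF arrays, at 5.58 and 5.75, was low in HFGSC, at 6.24 and 5.98, and read 7.88 and 8.83 in GSC. The 3 groups did not overlap. Wnt3 was at least 3.75-fold higher in GSC than in HF (log2 difference 2.69 ± 0.43 SE, limma adjusted p = 0.00369), and this call held without any 1 array, whereas the difference of HFGSC from HF was 0.44 ± 0.43 (adjusted p = 0.488). HFGSC and GSC differed by -2.25 (adjusted p = 0.110, or 0.0343 with the replicate block).

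Wnt5a, the other classic ligand of beta-catenin-independent signalling, did not pass. It read 8.06 and 8.70 in HF, against 8.62 and 11.34 in HFGSC and 9.29 and 9.72 in GSC. It was detected on all 6 arrays. The 2 HFGSC arrays lay far apart, and the lower of them overlapped HF. The log2 differences were 1.60 ± 0.86 SE in HFGSC (limma adjusted p = 0.211, or 0.0466 with the replicate number as a block) and 1.13 ± 0.86 in GSC (adjusted p = 0.358). A second probe was detected on HFGSC replicate 2 alone, at 7.32.

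For 10 of the other 11 ligands no probe was detected on any array: Wnt2, Wnt2b, Wnt3a, Wnt4, Wnt7a, Wnt9a, Wnt10a, Wnt10b, Wnt11 and Wnt16. That is 66.7% of the 15 ligands, where 36.1% of the 19057 named genes were detected nowhere. The remaining ligand, Wnt6, had no probe detected on both arrays of a group and was not tested. The first of its 3 probes was detected on 1 array of each group, at 6.48 on HF replicate 1, 6.20 on HFGSC replicate 2 and 6.23 on GSC replicate 2, and was not highest in HFGSC. The other probes were detected on HFGSC replicate 2 alone. One of them read 5.08 and 5.27 in HF, against 5.50 and 7.42 in HFGSC and 5.38 and 5.73 in GSC. The other read 7.28 on HFGSC replicate 2 and at most 5.46 elsewhere. Wnt6 lies next to Wnt10a in the genome, and Wnt10a was detected nowhere.

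The Frizzled receptors divided. Fzd3 and Fzd10 were higher in both germline stem cell groups than in HF, Fzd6 passed as lower in HFGSC, and Fzd8 passed as lower in GSC. Fzd10 had the largest difference of the members against HF in both comparisons. It read 5.41 and 5.05 in HF, against 12.55 and 11.46 in HFGSC and 10.67 and 11.36 in GSC. All germline stem cell arrays, and neither HF array, had it detected. Fzd10 was at least 47.1-fold higher in HFGSC (log2 difference 6.78 ± 0.56 SE, limma adjusted p = 0.000326) and at least 23.7-fold higher in GSC (difference 5.78 ± 0.56, adjusted p = 0.000521). Its other probes were higher by 4.29 and 2.90 in HFGSC and by 2.67 and 0.99 in GSC, on the log2 scale.

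Fzd3, a Frizzled with known parts in planar polarity and axon guidance, was the closest to it in size. It read 5.26 and 5.41 in HF, against 10.75 and 10.18 in HFGSC and 10.64 and 10.52 in GSC. The germline stem cell arrays lay close together and far above HF. Fzd3 was at least 16.2-fold higher in HFGSC (log2 difference 5.13 ± 0.49 SE, limma adjusted p = 0.000561) and at least 17.6-fold higher in GSC (difference 5.24 ± 0.49, adjusted p = 0.000485). A second probe differed by 4.74 and 4.79, and the third by 0.05 and 0.37, so the probes of Fzd3 disagreed in size. The Fzd10 and Fzd3 calls held without any 1 array.

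Fzd6, known in mouse for hair patterning and planar polarity, was detected on all arrays and lower in the germline stem cells. It read 9.66 and 9.34 in HF, against 7.41 and 7.38 in HFGSC and 7.90 and 8.22 in GSC, with no overlap between groups. Fzd6 fell by 2.10 ± 0.49 SE on the log2 scale in HFGSC, or 4.30-fold (limma adjusted p = 0.0177). In GSC the difference was -1.44 ± 0.49 (adjusted p = 0.0577, or 0.0113 with the replicate block). Its second probe differed by -2.12 and -1.84. The HFGSC call failed without HF replicate 1 (adjusted p = 0.146), HF replicate 2 (0.0932) or HFGSC replicate 1 (0.0556).

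Fzd8 read 7.21 and 7.77 in HF, against 5.15 and 7.12 in HFGSC and 5.19 and 5.62 in GSC. It was detected on HFGSC replicate 2 and on no other germline stem cell array. Fzd8 was at least 2.92-fold lower in GSC (log2 difference -2.08 ± 0.62 SE, limma adjusted p = 0.0387). In HFGSC the difference was -1.35 ± 0.62 (adjusted p = 0.153, or 0.0332 with the replicate block). The GSC call failed without either HF array or either GSC array, with adjusted p from 0.0631 to 0.168, and under median scaling (0.0817), no filter (0.0631) and no variance trend (0.0628).

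Fzd9 was detected in HFGSC alone, at 6.04 and 6.41, against 5.11 and 5.38 in HF and 5.10 and 5.52 in GSC. HFGSC lay above every other array by a small margin. The log2 difference of HFGSC from HF was 0.98 ± 0.28 SE (limma adjusted p = 0.0375), and that of GSC 0.06 ± 0.28 (adjusted p = 0.888). No minimum fold can be given, since the HFGSC mean of 6.22 lay below the lowest detected signals of the HF arrays, 6.39 and 6.50. The call failed without either HF array or either HFGSC array, with adjusted p from 0.0605 to 0.163.

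The remaining receptors did not pass. Fzd7 read 10.26 and 10.75 in HF, against 11.49 and 11.87 in HFGSC and 10.50 and 11.17 in GSC. Its HFGSC difference was 1.18 ± 0.41 SE (limma adjusted p = 0.0728, or 0.00617 with the replicate block). Fzd5, at 10.65 and 11.08 in HF, differed by -0.78 in HFGSC (adjusted p = 0.266) and by -1.45 in GSC (adjusted p = 0.0527, or 0.00383 with the block), and its other detected probes had the opposite sign. Lrp5, a co-receptor for Wnt ligands, read 8.38 and 8.37 in HF, against 6.95 and 7.31 in HFGSC and 7.13 and 7.36 in GSC. Both germline stem cell groups lay below HF without overlap. The Lrp5 differences were -1.24 ± 0.45 SE (adjusted p = 0.0815, or 0.0196 with the block) and -1.12 ± 0.45 (adjusted p = 0.0968, or 0.0260 with the block), and its 3 other detected probes were also lower. The other co-receptor, Lrp6, differed by 0.33 and 0.38, with its second probe at -1.34 and -0.23, and Fzd2 by 0.39 and 0.59 (adjusted p from 0.538 to 0.711 for both genes). Fzd1 and Fzd4 were not tested: Fzd1 was detected on HFGSC replicate 2 alone, at 6.13, and Fzd4 on 1 HF and 1 GSC array.

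**Figure D2:**
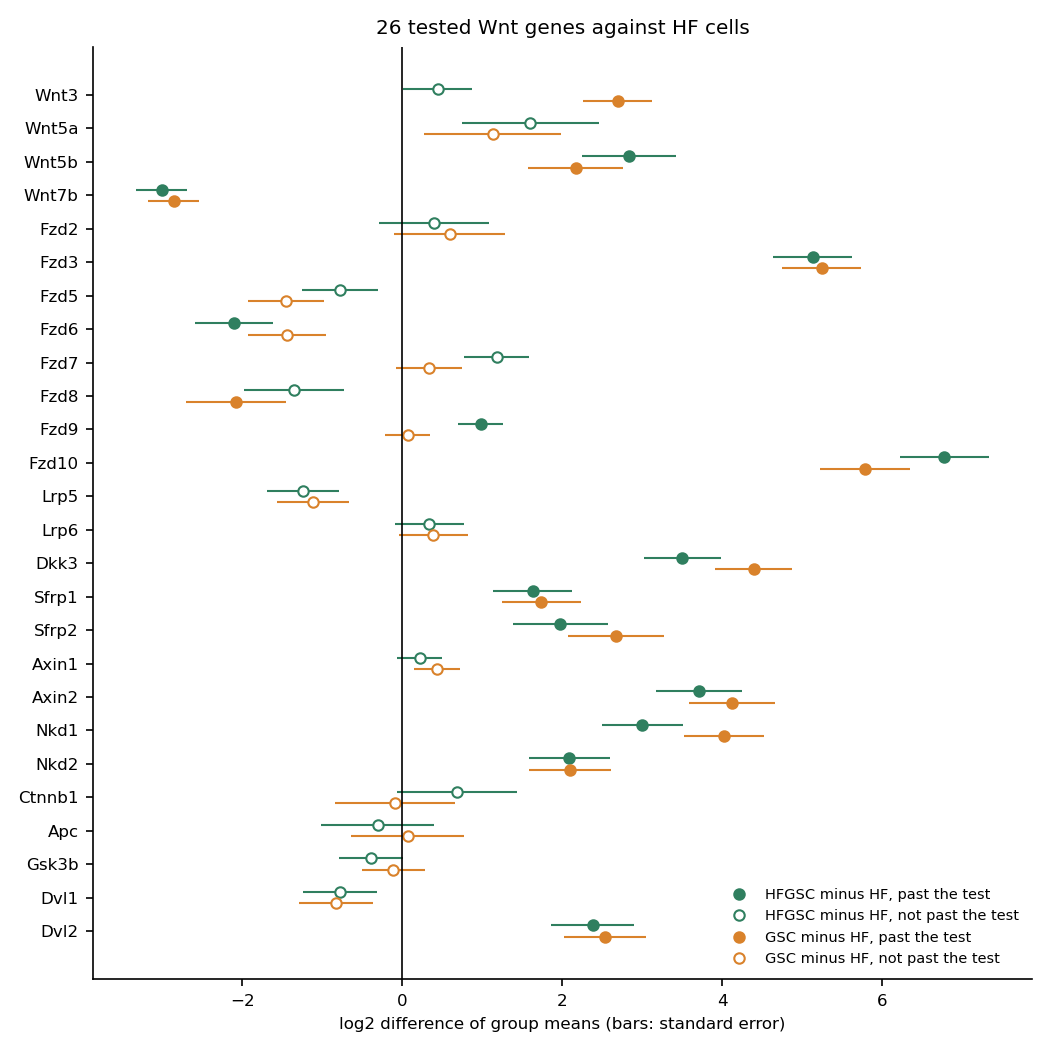
Log2 difference of the group means from HF for the 26 tested Wnt genes in HFGSC (green) and GSC (orange), with standard errors, filled where limma's adjusted p was under 0.05. Fzd10 and Fzd3 lie farthest to the right in both comparisons and Wnt7b farthest to the left. Values of genes not detected in HF are fitted differences and not bounds.

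The 3 secreted inhibitors that could be tested were higher in both germline stem cell groups, beside 17.2% of all genes in HFGSC and 19.5% in GSC. Of these inhibitors, Dkk3 and Sfrp2 were not detected in HF and entered the test only through the germline stem cell groups. Among all genes detected on neither HF array, 63.6% rose in HFGSC and 69.3% in GSC. Dkk3, a divergent member of the Dickkopf family, read 5.01 on each HF array, 8.89 and 8.13 in HFGSC, and 9.46 and 9.34 in GSC. It was detected on every germline stem cell array and on no HF array. Dkk3 was at least 4.19-fold higher in HFGSC (log2 difference 3.50 ± 0.48 SE, limma adjusted p = 0.00225) and at least 7.76-fold higher in GSC (difference 4.39 ± 0.48, adjusted p = 0.000824), and both calls held without any 1 array. A second probe differed by 3.48 and 4.40.

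Sfrp1 and Sfrp2 are secreted proteins that resemble the ligand-binding part of Frizzled. Sfrp1 was the one member detected on both HF arrays that rose, reading 8.31 and 9.22 in HF, against 10.42 and 10.36 in HFGSC and 10.22 and 10.78 in GSC. It was 3.09-fold higher in HFGSC (log2 difference 1.63 ± 0.50 SE, limma adjusted p = 0.0479) and 3.33-fold higher in GSC (difference 1.74 ± 0.50, adjusted p = 0.0328). The HFGSC call failed without any 1 of the 6 arrays (adjusted p from 0.0718 to 0.274), without background correction (0.0513), with the authors' log2 values (0.0529), without a filter (0.0665) and with every probe tested (0.0507). In GSC it failed without either HF array or either GSC array (adjusted p from 0.0567 to 0.213).

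Sfrp2 read 5.26 and 5.29 in HF, against 7.22 and 7.28 in HFGSC and 8.87 and 7.02 in GSC. It was not detected in HF, and the 2 GSC arrays lay on either side of HFGSC. Sfrp2 was at least 1.74-fold higher in HFGSC (log2 difference 1.98 ± 0.60 SE, limma adjusted p = 0.0470) and at least 2.82-fold higher in GSC (difference 2.67 ± 0.60, adjusted p = 0.0136). The HFGSC call failed without either HF or either HFGSC array (adjusted p from 0.10 to 0.166) and under 5 other settings (adjusted p from 0.0545 to 0.107), and the GSC call without HF replicate 1 (0.0654) or HF replicate 2 (0.0561). Dkk1, Dkk2 and Sfrp4 were detected on no array.

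The 3 feedback targets were not detected in HF and were higher in both germline stem cell groups. They entered the test only through those groups, and of all genes detected on neither HF array 63.6% rose in HFGSC and 69.3% in GSC. Axin2, which restrains beta-catenin signalling and is widely read as its target gene, stood at 5.14 and 5.17 in HF, against 8.53 and 9.18 in HFGSC and 8.81 and 9.74 in GSC. The germline stem cell groups overlapped each other and lay far above HF. Axin2 was at least 5.32-fold higher in HFGSC (log2 difference 3.71 ± 0.54 SE, limma adjusted p = 0.00271) and at least 7.12-fold higher in GSC (difference 4.12 ± 0.54, adjusted p = 0.00152), and both calls held without any 1 array.

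Nkd1 and Nkd2, which bind Dishevelled and dampen the pathway, followed. Nkd1 read 5.10 and 5.20 in HF, against 7.83 and 8.46 in HFGSC and 8.77 and 9.56 in GSC. Its groups did not overlap. Nkd1 was at least 3.25-fold higher in HFGSC (log2 difference 3.00 ± 0.50 SE, limma adjusted p = 0.00488) and at least 6.58-fold higher in GSC (difference 4.02 ± 0.50, adjusted p = 0.00131). The HFGSC call failed without HF replicate 1 (adjusted p = 0.0523), and a second probe was detected on GSC replicate 2 alone.

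Nkd2 read 5.26 and 6.24 in HF, against 7.80 and 7.87 in HFGSC and 7.47 and 8.22 in GSC. Both germline stem cell groups lay above HF and overlapped each other. It was at least 2.62-fold higher in HFGSC (log2 difference 2.09 ± 0.51 SE, limma adjusted p = 0.0217) and at least 2.63-fold higher in GSC (difference 2.09 ± 0.51, adjusted p = 0.0183). The HFGSC call failed without HF replicate 1 (adjusted p = 0.194) or either HFGSC array (0.0618 and 0.0523) and with no filter (0.0558). The GSC call failed without HF replicate 1 (0.173) or GSC replicate 2 (0.0883).

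Of the 6 transducers tested, Dvl2 alone passed. Dvl2, a Dishevelled protein that relays the signal from Frizzled, read 5.75 and 5.56 in HF, against 7.55 and 8.52 in HFGSC and 7.85 and 8.53 in GSC. It was detected on every germline stem cell array and on no HF array. Dvl2 was at least 3.00-fold higher in HFGSC (log2 difference 2.38 ± 0.52 SE, limma adjusted p = 0.0139) and at least 3.34-fold higher in GSC (difference 2.53 ± 0.52, adjusted p = 0.00935). The calls failed without HF replicate 1 (adjusted p = 0.0826 and 0.0600) or HF replicate 2 (0.0972 and 0.0685), and in GSC without GSC replicate 2 (0.0515).

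The other Dishevelled genes did not follow it. Dvl1 was bright on all arrays, at 11.74 and 12.02 in HF, against 10.54 and 11.65 in HFGSC and 10.71 and 11.38 in GSC, with differences of -0.78 and -0.83 (limma adjusted p = 0.254 and 0.215, or 0.0461 and 0.0340 with the replicate block). Dvl3 was detected on no array. Ctnnb1, beta-catenin itself, read 12.74 and 10.89 in HF, against 12.56 and 12.44 in HFGSC and 12.70 and 10.75 in GSC. Replicate 2 lay far below replicate 1 in HF and GSC, and not in HFGSC. Its differences were 0.69 ± 0.75 SE and -0.09 ± 0.75 (adjusted p = 0.542 and 0.943), and its probes disagreed in sign.

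Of the destruction complex genes Axin1, Gsk3b and Apc none passed (limma adjusted p from 0.294 to 0.957). Axin1 differed by 0.21 and 0.43, Gsk3b by -0.39 and -0.12 with its second probe at 0.14 and 0.21, and Apc by -0.31 and 0.07, where replicate 1 was the brighter array of Apc in each group. Over the genes with more than 1 tested probe, 16 further probes of 12 genes could be set against the probe that stood for the gene. Of these, 10 had its sign in both comparisons and 6 did not, in Fzd5, Lrp6, Ctnnb1 and Gsk3b. None of these 4 genes passed the test. Of the TCF/LEF factors, Lef1 had 4 probes, and none was detected on any array.

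HFGSC and GSC were then compared with each other. No member passed by limma, 0 of 26 higher and 0 lower, where 0.44% of all tested genes passed. Of the 26 members, 2 had an unadjusted limma p under 0.05, Wnt3 and Fzd9. The share of all genes at that cut is not given here, so this count is not read as a result. Wnt3 differed by -2.25 on the log2 scale, lower in HFGSC, with a 95% interval of the difference from -3.25 to -1.24 (adjusted p = 0.110). With the replicate number as a block this was the 1 member that passed (adjusted p = 0.0343), where 1.59% of all genes did. Fzd9 was higher in HFGSC by 0.91, with an interval from 0.27 to 1.56 (adjusted p = 0.387).

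For the other members the intervals covered 0 and were wide. Fzd10 was higher in HFGSC by 0.99, with an interval from -0.32 to 2.30, and its other probes by 1.62 and 1.91, without overlap between the groups on any of the 3 probes. Nkd1 differed by -1.02, with an interval from -2.19 to 0.15, and Dkk3 by -0.89, from -2.02 to 0.24. Axin2 differed by -0.42, from -1.67 to 0.83, and Fzd3 by -0.12, from -1.27 to 1.04. Of the 26 members, 24 differed by under 1 log2 unit, or 92.3%, against 88.6% of all genes. The median size of the difference was 0.45 for the members and 0.37 for all genes. Against HF it was 1.48 for HFGSC and 1.59 for GSC over the members, beside 0.82 and 0.89 over all genes. The sizes against HF were not split by detection in HF. The groups did not overlap for 9 of 26 members, or 34.6%, against 32.3% of all genes. A p that misses the threshold does not show that the groups are alike.

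**Figure D3:**
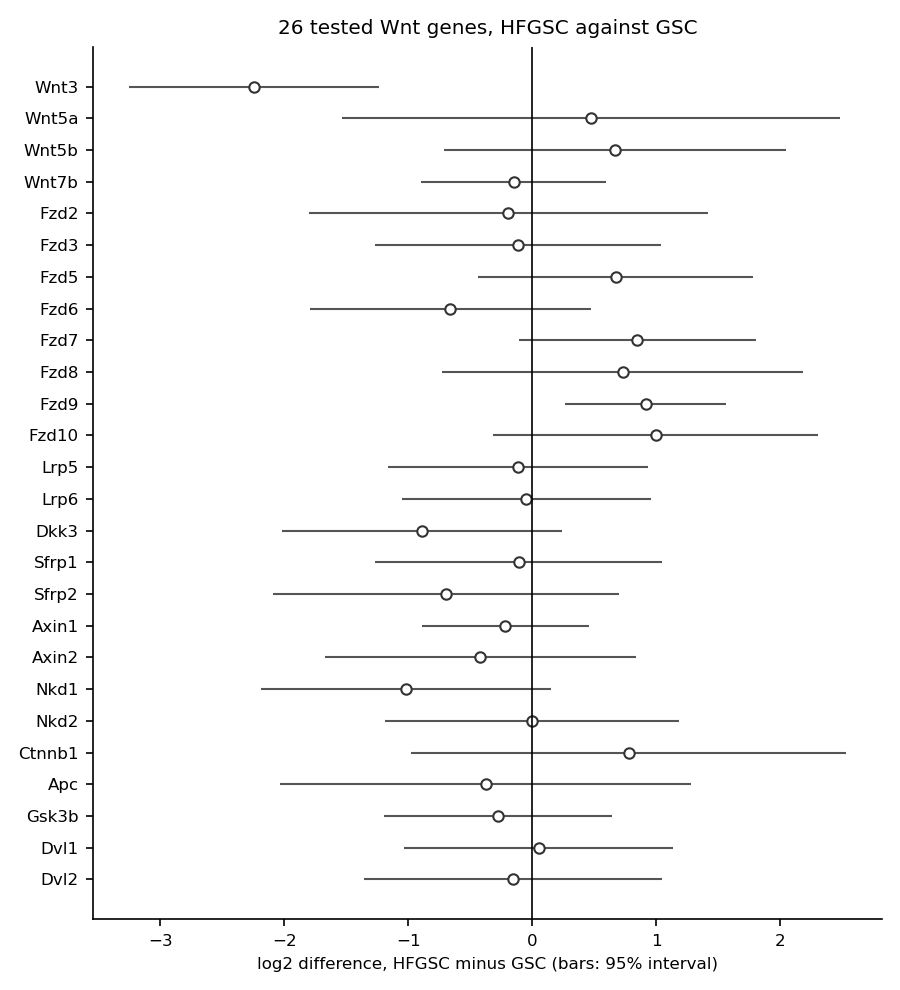
Log2 difference of HFGSC minus GSC for the 26 tested Wnt genes, with 95% intervals from the limma fit. The intervals of Wnt3, from -3.25 to -1.24, and Fzd9, from 0.27 to 1.56, do not cover 0, and no gene passed after adjustment.

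Several members were highest on HFGSC replicate 2 among the germline stem cell arrays. Wnt5a exceeded the highest of the other 3 by over 1 log2 unit, at 11.34 against 9.72, and so did Fzd8, at 7.12 against 5.62. These were 2 of 26 members, or 7.69%, against 7.5% of all genes. The untested Fzd1 and all 3 probes of Wnt6 were detected there too, though 1 of these Wnt6 probes was not highest there. On the same array the mesenchymal marker Pdgfrb read 8.81, against 6.40 to 7.28 on the other germline stem cell arrays, and Vim 12.54, against 10.29 to 10.86. Fbln1 went the other way, at 12.19 on that array and 12.50 on HFGSC replicate 1, and Lum, a further mesenchymal marker, was detected on no array. The bulge markers Cd34, at 9.57 against at most 8.02, Sox9, at 13.59 against at most 12.64, and Nfatc1, at 8.91 against at most 7.56, were also highest there among the germline stem cell arrays. The part of the cells marked by these genes in the Wnt5a, Wnt6, Fzd8 and Fzd1 values was not tested.

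**Figure D4:**
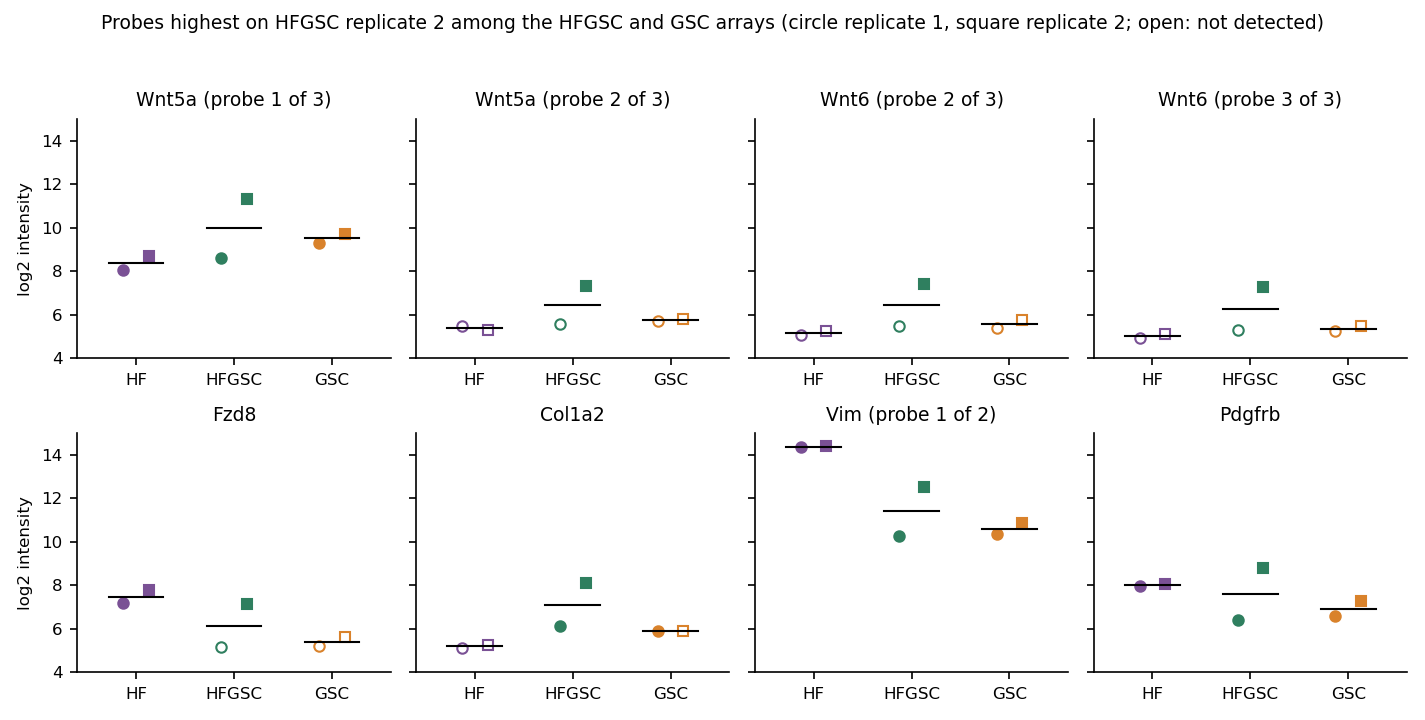
Log2 intensity on each array for 5 probes of Wnt5a, Wnt6 and Fzd8 and for 3 mesenchymal markers, with circles for replicate 1, squares for replicate 2 and open symbols for values not detected. On every panel HFGSC replicate 2 lies above the other HFGSC and GSC arrays. The Wnt5a and Wnt6 probes shown also lie above HF there, and Fzd8 and Vim do not.

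Other genes of the pathway were listed apart from the 45. Of 70 such genes 68 were on the array and 49 were tested. In HFGSC 20 rose and 5 fell, and in GSC 19 rose and 6 fell, with 17 higher and 5 lower in both. Over all tested genes the shares were 17.2% higher and 9.37% lower in HFGSC, and 19.5% and 12.6% in GSC. Of the 49 genes, 34 had a probe detected on both HF arrays. The rest entered the test only through a germline stem cell group, and the calls were not split by HF detection. Between HFGSC and GSC 0 of the 49 passed by limma, with or without the replicate block. An unadjusted limma p under 0.05 was found for 3, Wnt9b, Ror2 and Celsr3. The share of all genes at that cut is not given here, so this count is not read as a result. Among the planar polarity and co-receptor genes, 7 of 10 rose in HFGSC and 6 in GSC, beside the 17.2% and 19.5% of all genes. Of these 10, 6 had a probe detected on both HF arrays. For scale, 63.6% and 69.3% of all tested genes detected on neither HF array rose. Ptk7, a co-receptor of the planar polarity branch, was at least 30.1-fold higher in HFGSC and at least 28.2-fold higher in GSC (limma adjusted p = 0.000310 and 0.000319). Prickle1, a planar polarity core gene, was 25.7-fold and 14.0-fold higher (adjusted p = 0.000415 and 0.000796).

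R-spondins enhance Wnt signalling through Lgr receptors, and Rspo2 and Rspo4 rose in both groups. Rspo2 was at least 11.1-fold higher in HFGSC and at least 8.47-fold higher in GSC (limma adjusted p = 0.00111 and 0.00139), and Rspo4 at least 9.0-fold and 7.52-fold (adjusted p = 0.00111 and 0.00123). Rspo1 did not pass in HFGSC (adjusted p = 0.134). It was at least 1.28-fold higher in GSC (difference 1.54, adjusted p = 0.0263), a call that failed without either HF array or GSC replicate 2 (adjusted p up to 0.108). Lgr6, an R-spondin receptor, was at least 10.99-fold lower and at least 10.9-fold lower (adjusted p = 0.00206 and 0.00105). Wls, the carrier needed for Wnt secretion, was 4.34-fold lower in HFGSC (adjusted p = 0.0240) and 6.94-fold lower in GSC (adjusted p = 0.00712). The Wls call failed without HF replicate 1 (adjusted p = 0.141 and 0.0528), and in HFGSC without HF replicate 2 or HFGSC replicate 1 as well.

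Among other known targets, Sp5 rose and Myc, Cd44 and Id2 fell. Sp5, a direct target of beta-catenin in many tissues, was at least 4.02-fold higher in HFGSC and at least 5.55-fold higher in GSC (limma adjusted p = 0.00184 and 0.000945). Myc was 5.49-fold lower in HFGSC and at least 5.76-fold lower in GSC (adjusted p = 0.0192 and 0.00638), and Cd44 was 6.86-fold and 14.1-fold lower (adjusted p = 0.0136 and 0.00335). Id2 was 9.30-fold lower in HFGSC and at least 14.1-fold lower in GSC (adjusted p = 0.0154 and 0.00383). In GSC these 3 calls held without any 1 array. In HFGSC Myc failed without HF replicate 2 or HFGSC replicate 1 (adjusted p up to 0.0791), Cd44 without either HF array (up to 0.0693) and Id2 without HF replicate 1 or HFGSC replicate 1 (up to 0.0588).

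In the nuclear group 7 of 11 genes rose in HFGSC and 5 in GSC, beside the 17.2% and 19.5% of all genes, among them Pygo1, which acts with beta-catenin, at 11.04-fold and 7.56-fold higher (limma adjusted p = 0.00394 and 0.00699). Of the 7 calls in HFGSC, Pygo1 alone held without any 1 array. Of the 6 arrays left out in turn, Tcf7l1 held for 5, Bcl9 and Tle3 for 3, Tle4 for 2, Pygo2 for 1 and Tle1 for 0, with adjusted p up to 0.216. The Pygo1 call in GSC failed without HF replicate 1 or GSC replicate 2 (adjusted p up to 0.0561). Of the 25 calls in each comparison, 10 in HFGSC and 12 in GSC held without any 1 array. These included Ptk7, Prickle1, Rspo2, Rspo4, Lgr6 and Sp5 in both. Leaving out each array named next also lowered the total of all genes past the test in the comparisons given. Without HF replicate 1, 11 rose and 2 fell in HFGSC and 11 rose and 4 fell in GSC. Without HF replicate 2, the counts were 10 and 2, and 11 and 5. Without HFGSC replicate 1, 2 fell in HFGSC, among them neither Myc nor Id2, and without GSC replicate 2, 11 rose in GSC. With the replicate block 23 rose and 7 fell in HFGSC, where 26.4% and 20.6% of all genes did. In GSC 26 rose and 9 fell with the block, where 29.1% and 22.9% did.

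**Figure D5:**
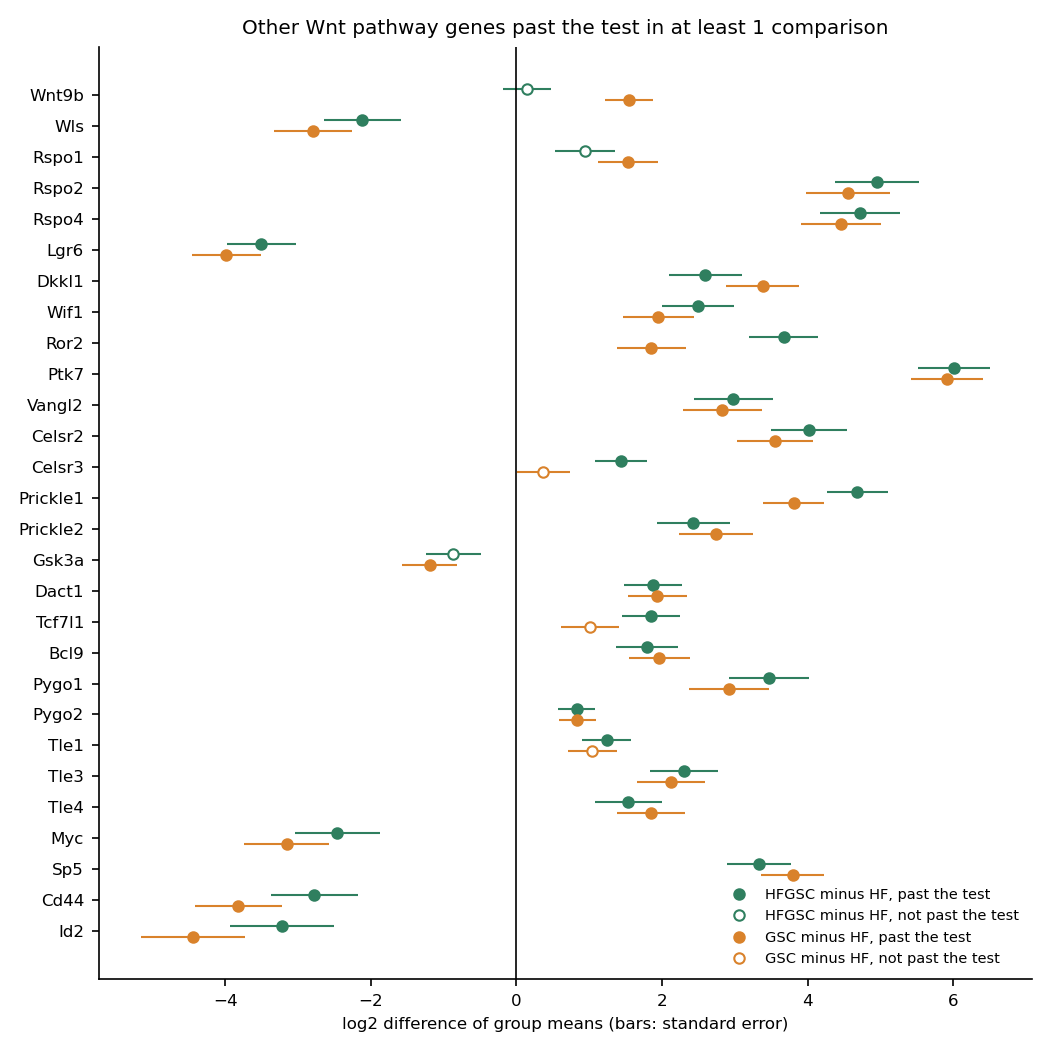
Log2 difference of the group means from HF, with standard errors, for the other Wnt pathway genes past the test in at least 1 comparison, in HFGSC (green) and GSC (orange), filled where limma's adjusted p was under 0.05. Ptk7 lies farthest to the right in both comparisons. Farthest to the left is Lgr6 in HFGSC and Id2 in GSC.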

How the data were processed

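Total RNA was hybridised to Illumina bead arrays. The authors deposited intensity values per probe, linear and not normalized, with a detection p-value beside each, per the file headers, and a second table of log2 values, no value of which differs by more than 0.161 from quantile-normalized log2 intensities. That table is on a log2 scale and uncentred, with a median of 7.05 in every column; direction does not apply to 1-channel values. Per the submitters' processing notes, GenomeStudio 2011.1 and R 3.0.2 were used. Unused value columns numbered 0.

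Samples were grouped by title. Intensities were processed by the neqc function (limma 3.58.1, R 4.3.3; background inferred from detection p-values, offset 16, quantile, log2). A probe was kept if both arrays of any group had a detection p under 0.05, and each gene was represented by its brightest kept probe. Linear models were fitted to all 6 arrays, 3 residual degrees of freedom, with eBayes and a mean-variance trend, with Benjamini-Hochberg adjustment across 10913 genes. Where the dimmer group was undetected on both arrays, only a minimum fold is given, with each dim array set to its lowest detected signal or to the probe's signal, whichever was higher. The test was tried on simulated data with noise drawn separately for each array, which leaves out the correlation of replicates given below.

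The platform annotation gave 1 symbol to 34885 probes, several to 18 and none to 10378. Entrez identifiers of 34807 probes matched the RefSeq table of GRCm38.p6, and 0 symbols changed. That table also gave the gene neighbours.

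Members and lists were chosen with earlier results of these data known. Members are all described; of the other pathway genes only those past the test are named.

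Replicate numbers carry no animal or batch in the labels. The difference of replicate 2 from replicate 1 had a correlation across genes of 0.436 for HF with HFGSC, 0.757 for HF with GSC and 0.58 for HFGSC with GSC. Median raw intensity was 109.25 on HF replicate 2 and 113.12 on GSC replicate 2, against 146.01 on HFGSC replicate 2 and 150.53 to 151.53 on the replicate 1 arrays. On these data alone the numbers were treated as pairing arrays, an assumption. How well the pairing holds for HFGSC was not tested. Blocked values stand beside results whose call they change. Alternatives covered background correction, scaling, the authors' log2 values, filters, variance trend, probe choice, the block and leaving out each array.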

Additional observations from a re-analysis of the deposited data

How the results depend on the processing

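No value of a member past the test changed sign under the 15 alternatives. In HFGSC against HF 5 of 13 calls held under every alternative (Wnt7b, Fzd3, Fzd10, Dkk3 and Axin2), and in GSC against HF 7 of 13 (the same 5 with Wnt3 and Nkd1). Of 388 member values in each comparison, 35, 22 and 0 lost their call and 8, 12 and 1 gained one, in HFGSC against HF, GSC against HF and HFGSC against GSC.

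Counts of all genes past the test were 2896, 3501 and 48. Testing every kept probe on its own gave 4432 in HFGSC against HF and 5460 in GSC against HF, over more features. The replicate block gave 5122, 5669 and 174, and changed no other member call than those named with the results. Without the variance trend 13 genes passed in HFGSC against GSC. Leaving out 1 array gave 1371 to 2860, 1699 to 3876, and 0 to 54 genes, the last with 0 when HFGSC replicate 2 was left out, and fewer arrays leave fewer degrees of freedom. A group reduced to 1 array is assumed to vary like the others.

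Members higher numbered 4 to 10 in HFGSC and 6 to 11 in GSC when 1 array was left out, and members lower 1 to 3 in each. With the replicate block 5 were lower in HFGSC and 6 in GSC, and 1 was lower in HFGSC than in GSC, where leaving out arrays gave 0. In GSC 1 was lower under median scaling, 1 with no filter and 4 without the variance trend; the cause was not tested. Scaling moved the median of all genes by at most 0.0878, and testing every probe by -0.114 in HFGSC against HF. The headers give no chip barcode, so the slide block was not run. Dim probes limit the folds: bounds rest on the lowest detected signal.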
